A study of Arabidopsis thaliana with 18 samples.

Results

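A set of 330 H3K27me3 peaks of medium length carried more signal in 1 of the deposited pools of Arabidopsis thaliana shoot apices than in the other. They were taken from 10228 H3K27me3 peaks, of which 5981 lay on chromosomes 1 to 5 and were at least 500 and under 5000 bp long, and they made up 5.52% of these. A peak entered the set, called treat-high here, when its total signal in the pool named treat was at least 10000 and at least 1.5 times that of the pool named control. The peaks were thus chosen by their H3K27me3 total signal in both pools, so the H3K27me3 differences below are a description and carry no test.

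The study compared wild-type plants (WT) with the chr4 mutant, also called chr4/pkr1, a mutant of the CHD-family chromatin remodeller CHR4. Apex-enriched tissue came from plants kept for 5 weeks in short days, with 8 h of light and 16 h of dark at 21 °C, and both genotypes shared these conditions. Chromatin of each sample was divided for precipitation with antibodies against H3K27me3, H3K4me3 and histone H3, which gave 18 samples in 6 groups of 3. The peak tables hold 1 value per mark and pool, with the 3 replicates of a genotype pooled, so no difference could be set against a spread between replicates, and read depth cannot be given. No H3 values were analysed here. The labels name neither the allele nor the plants behind a sample, and the tissue was a mix of apical cell types. The headers leave the genotype of each pool unnamed, so every direction is treat relative to control and no genotype is attached to it. Where a pair of values is given for a peak, the first is from the control pool and the second from the treat pool.

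H3K27me3 is written by Polycomb repressive complex 2 and marks genes that are kept silent in a given tissue. In plants it often covers whole transcribed regions, and it retracts from a locus when the gene is activated. H3K4me3 is deposited at the start of transcribed genes, and both marks on the same stretch of chromatin are uncommon. In the shoot apex, loss or gain of H3K27me3 at regulators of flowering accompanies the change from leaf to flower production.

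The treat-high peaks were weak in the control pool. Their total signal, in the authors' unstated unit, had a median of 6831 and a range of 66.7 to 27521 in the control pool. The treat pool had a median of 13259 and a range of 10008 to 41375. The other 5651 peaks of the same length class had medians of 19969 and 17425. The median ratio of treat over control was 1.84 in the treat-high peaks, with 1.66 and 2.32 as the lower and upper quartiles, and 205 of the 330 differed by less than 2-fold. At least 4-fold differences were seen at 33 peaks and at least 10-fold differences at 11.

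**Figure D1:**
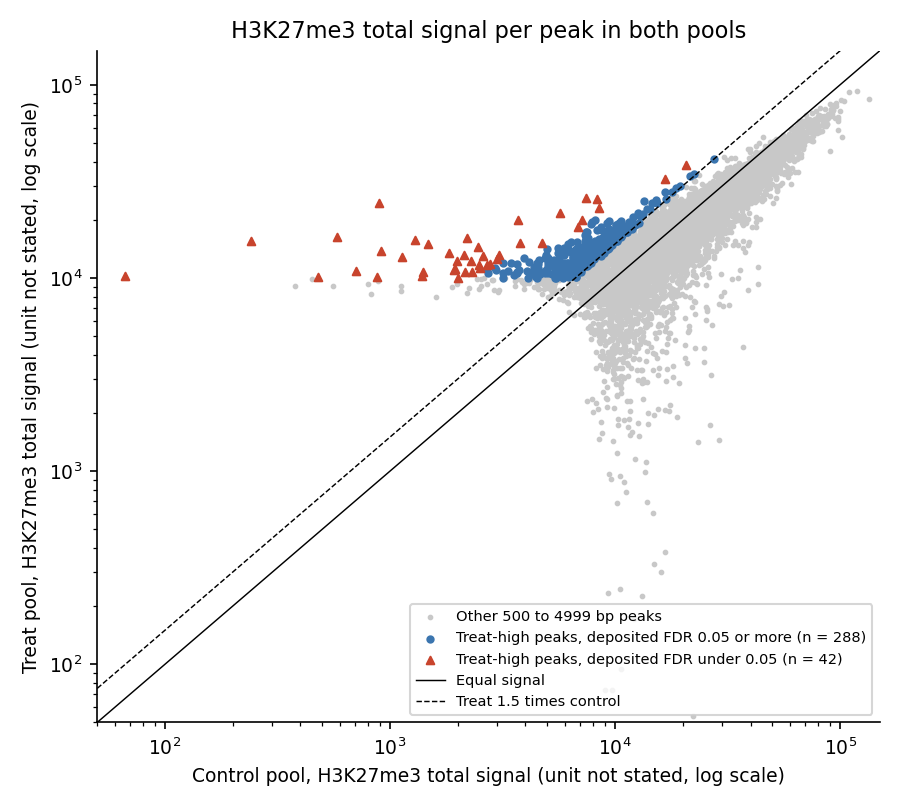
H3K27me3 total signal of each nuclear peak of 500 bp up to 5000 bp in the control pool (x axis) and the treat pool (y axis), both on log scales and in the authors' unstated unit, with 9 peaks under 50 in a pool left out. The treat-high peaks lie above the dashed 1.5-fold line, and those with a deposited FDR under 0.05 (triangles) lie mostly where the control signal was low.

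Across the length class the balance ran the other way. Of the 5981 peaks, 407 (6.80%) were at least 1.5-fold higher in the treat pool and 996 (16.7%) at least 1.5-fold lower, and the median log2 ratio was -0.20. Over all 10194 nuclear peaks, 20.4% were at least 1.5-fold higher in the treat pool. Of the 407, 77 had a treat signal under 10000 and stayed outside the set, the highest of them at 9993. The smallest ratios inside the set were those of AT5G27037, with 27521 and 41375, and of AT2G42475, with 11933 and 17951. Just outside lay AT3G14560, with 13267 and 19897, and AT1G65150, with 13448 and 20118.

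Signal outside the nuclear peaks of this length also differed between the pools. All 32 mitochondrial H3K27me3 peaks were higher in the treat pool, with a median log2 ratio of 1.62, and 2099 of 3433 nuclear peaks under 500 bp were higher, with a median of 0.53. The 780 peaks of 5000 bp or more had a median of -0.18. The part of these differences in the treat-high peaks was not tested. In the window of chromosome 2 known to hold a mitochondrial insertion (3200000 to 3600000), 2 treat-high peaks were found, on AT2G07638 and AT2G07711, and 0 of the other peaks of this length.

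The difference was one of width as well as of height. The treat-high peaks had a median length of 960 bp, against 1630 bp for the other peaks of the class, and 178 were under 1000 bp. The deposited width of the enriched part had medians of 425 bp (control) and 940 bp (treat). In the control pool it covered a median of 47.0% of the peak, and in the treat pool 100%. In the treat pool 201 peaks were covered in full, as were 806 of the other 5651 peaks of the class. In 53 treat-high peaks the control width was 0, as in 35 of the other 5651. These 53 were short, with a median of 680 bp, and had a median ratio of 4.62, while the other 277 had a median ratio of 1.76. Median peak height was 1149 for control and 1873 for treat. By height, 223 of the 330 peaks were at least 1.5-fold higher in the treat pool, as were 101 of the other 5651. The peaks were chosen by total signal in the same pools, so the width and height counts are a description. Height was lower in the treat pool at 2 peaks, 1 of them on SGR9, a ubiquitin ligase gene of shoot gravitropism, where it was 1718 and 1624. The other was on AT5G28285, with 3721 and 3539.

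**Figure D2:**
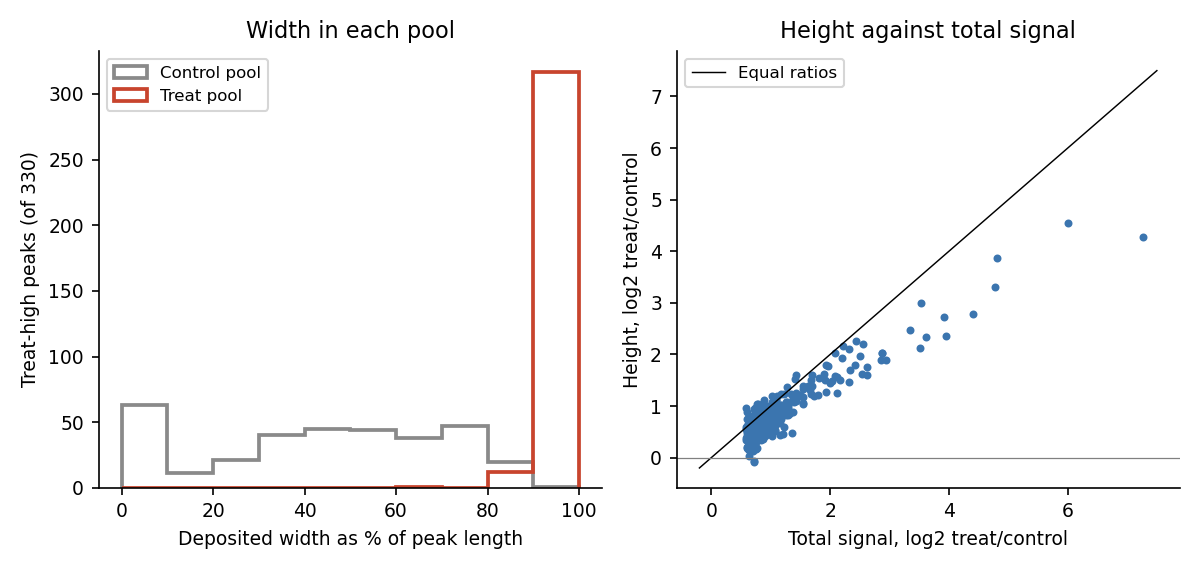
Left, the deposited width of each of the 330 treat-high peaks as a percentage of peak length, counted for the control pool (grey) and the treat pool (red). Right, log2 treat over control of peak height against that of total signal, 1 point per peak, where the 33 peaks with at least 4-fold differences in total signal lie below the line of equal ratios and 2 peaks lie below 0 in height.

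The highest signals of the set belonged to peaks that were already marked in the control pool. The peak with the most signal in the treat pool lay on AT5G27037, a transcribed pseudogene (chromosome 5, 9516460 to 9519480), and was described above at the lower limit of the rule. CBL8, a calcineurin B-like calcium sensor gene, had 20586 and 38444 over 3430 bp (chromosome 1, 23948430 to 23951860). BGAL7, a beta-galactosidase gene, had 16604 and 32670 (chromosome 5, 7009710 to 7011330), and its height went from 4370 to 8154. AT2G01810 had 22459 and 34514, and AT3G24780 had 21561 and 33629. AT3G22710, AT4G14165 and AT1G53340 had treat signals of 29988, 29385 and 27733, each between 1.54 and 1.57 times the control signal. In these 8 peaks the ratio stayed under 2.

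The largest ratios came from peaks with little signal in the control pool. TSPO, which encodes a stress-induced membrane protein related to the tryptophan-rich sensory proteins, had 66.7 and 10222 (chromosome 2, 19568520 to 19569360). AT3G30160 carried a pair of neighbouring treat-high peaks (chromosome 3, 11784000 to 11784640 and 11784780 to 11785480). The first had 478 and 10070, and the second 241 and 15495. The long noncoding RNA gene AT1G67328, which shares its peak with AT1G67330 (chromosome 1, 25214120 to 25215070), had 581 and 16341. AT3G19880 had 889 and 24307 over 1400 bp (chromosome 3, 6911680 to 6913080), the highest treat signal among the 11. AT1G05400 had 706 and 10918, the long noncoding RNA gene AT3G03945 had 915 and 13767, and AT2G03550 had 1285 and 15685. The remaining 10-fold differences were at AT1G24130 with 1132 and 12877, at GH9B18, a glycosyl hydrolase family gene, with 874 and 10074, and at a stretch of chromosome 3 with no gene (23130020 to 23131040) with 1478 and 14989. At all 11 the control width was 0.

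The deposited FDR of total signal, for which no source used here gives the computation, was under 0.05 at 42 of the 330 peaks. It was under 0.05 with a higher treat pool at 0.874% of all peaks of this length with a treat signal of at least 10000, and at 4.47% of all nuclear peaks. The rule used the same contrast, so nothing is read from the 42. Of these, 32 had a control width of 0. Ordered by treat signal they began with CBL8 and BGAL7 and went on with the pseudogene AT4G08090, with 7447 and 26026 (chromosome 4, 4972790 to 4974270). The next was the peak on AT5G10946 and MIR156d, with 8295 and 25560, followed by AT3G19880. AT3G29800 had 8463 and 22906, AT5G55430 had 5686 and 21727, and TIP2;3, a vacuolar aquaporin gene, had 7156 and 19979.

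MIR156d encodes a precursor of miR156, the microRNA that keeps plants juvenile by repressing SPL transcription factors. It lay in a treat-high peak of 2320 bp (chromosome 5, 3454760 to 3457080) that also covered AT5G10946. The signal there was 3.08-fold higher in the treat pool, the contrast by which the peak was chosen. Of 31 listed regulators of flowering, floral organs, the meristem and the age pathway, 26 had an H3K27me3 peak of any length, and MIR156d was the 1 of them on a treat-high peak. Many of these peaks, such as those of AP1 (13630 bp) and FLC (7940 bp), were too long for the rule and could not be treat-high. Over all peaks of the length class the treat-high share was 5.52%. The ratio was above 1 at 6 of the 26. Over the length class it was above 1 at 1787 of 5981 peaks, and at 5000 bp or more at 102 of 780. The ratios of the other listed miR156 precursor genes lay between 0.827 and 1.05, and no miR156 gene beyond MIR156A to MIR156F was listed. MIR156A, MIR156B, MIR156C and MIR156F lay in peaks of 7660 to 11090 bp, outside the length class, and MIR156E in a peak of 2910 bp. The MIR156d peak was chosen by its ratio, so its contrast with these genes is a description. MIR156A had 48619 and 40215, MIR156B had 36604 and 36623, MIR156C had 31826 and 31292, MIR156E had 36552 and 38355, and MIR156F had 42245 and 38114. Among genes of floral identity, LFY had a ratio of 0.782, AP3 0.824, PI 0.841 and SEP1 0.956. A ratio of 0.493 at SPL4, a target of miR156, was the lowest of the list. Each of these ratios is that of 1 pool over another.

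**Figure D3:**
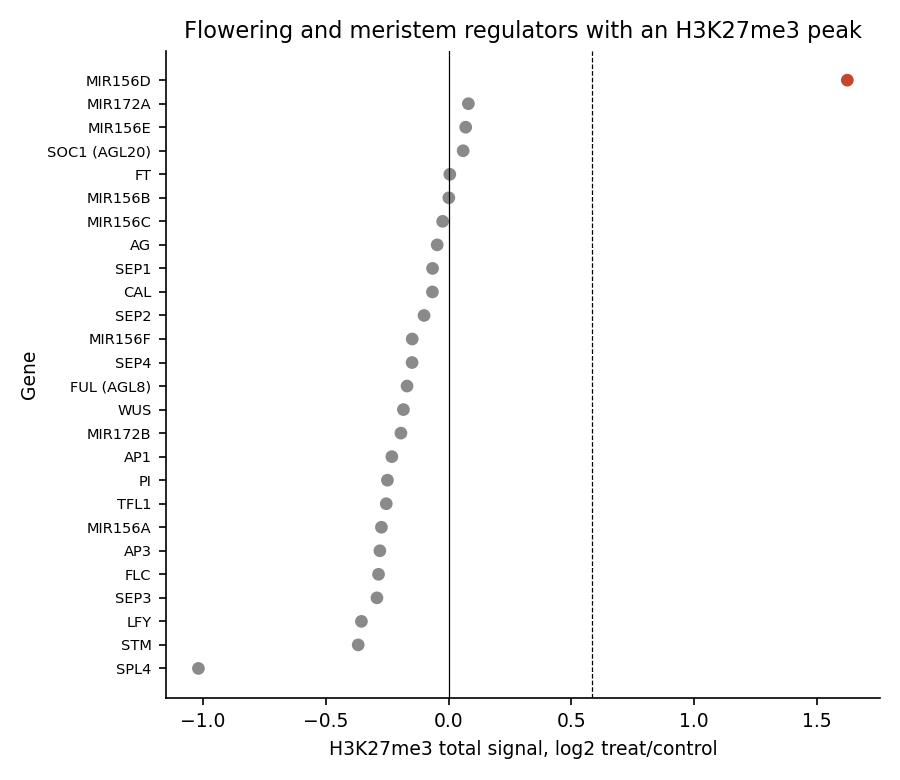
Log2 ratio of H3K27me3 total signal, treat over control, at the 26 listed regulators with an H3K27me3 peak, 1 point per gene, with the dashed line at 1.5-fold. MIR156D (red) lies at 1.62, and the other 25 genes lie below the dashed line. Peaks of any length are shown, and those of 5000 bp or more could not be treat-high.

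H3K4me3 gave a readout that the rule did not use, although it came from the same divided chromatin. Of the 330 treat-high peaks, 24 (7.27%) overlapped an H3K4me3 peak, against 12.8% of the other peaks of the class. The share was 9.83% of 936 level-matched peaks. Their ratios were within 1.5-fold and their treat signals lay between the quartiles of the treat-high peaks. They were thus matched in the treat pool only: their median control signal was 14397, against 6831 for the treat-high peaks. Within 2 kb an H3K4me3 peak was found at 35.5% of the treat-high peaks, 54.3% of the other peaks and 47.8% of the level-matched peaks. By the mirrored rule, with control and treat exchanged, 885 peaks were lower in the treat pool. Of these, 19.3% overlapped an H3K4me3 peak and 64.2% had an H3K4me3 peak within 2 kb. Median lengths were 960 bp for treat-high, 1630 bp for other, 1330 bp for level-matched and 1160 bp for mirrored peaks. The part of length in these shares was not tested. The 24 peaks met 27 H3K4me3 peaks, of which 23 were lower in the treat pool (85.2%). The shares lower there were 68.7% of all nuclear peaks, 56.9% of those on the other H3K27me3 peaks of the class and 53.1% of those on level-matched peaks. At least 1.5-fold lower were 13 of the 27 (48.1%) and at least 1.5-fold higher 0. Over all 15992 nuclear H3K4me3 peaks, 4.98% were 1.5-fold lower and 3.53% 1.5-fold higher. Over the 772 H3K4me3 peaks on other H3K27me3 peaks of this length, 11.7% were lower and 13.5% higher, and over the 98 on level-matched peaks 10.2% and 13.3%. On the peaks of the mirrored rule, 12.1% of 182 H3K4me3 peaks were 1.5-fold lower and 19.2% higher. Of those 182, 47.8% were lower by any amount, with a median log2 ratio of 0.03. The deposited FDR was under 0.05 at 13 of the 27, all lower in the treat pool (48.1%). It was under 0.05 with a lower treat pool at 3.93% of all nuclear H3K4me3 peaks, 8.81% of those on the other H3K27me3 peaks of the class and 8.16% of those on level-matched peaks. The median H3K4me3 log2 ratio was -0.51 at the treat-high peaks, -0.05 at the other peaks of the class and -0.08 over all nuclear peaks. Peaks are not replicates and each value is 1 pool over another, so these shares have no test.

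Lower H3K4me3 signals were found on both sides of a limit of 10000, which is low for this mark. The higher pool had a median of 24972 over all nuclear H3K4me3 peaks, and 6 of the 27 reached their lower quartile. The 14 that reached 10000 had a median of 14233. Such peaks had medians of 21361 on the other H3K27me3 peaks of the class and 17624 on level-matched peaks. Among the 14 H3K4me3 peaks that reached 10000 in either pool, 13 were lower in the treat pool (92.9%), against 63.3% of such peaks on the other H3K27me3 peaks of the class and 56.7% of those on level-matched peaks. In the same 14, 4 were 1.5-fold lower (28.6%), against 3.81% of 472 such peaks on the other H3K27me3 peaks of the class and 1.67% of 60 on level-matched peaks. Among the 13 below 10000 in both pools, 9 were 1.5-fold lower and 0 higher, while 300 such peaks on the other H3K27me3 peaks split into 24.0% lower and 28.7% higher. Of the 4 H3K4me3 peaks that were higher in the treat pool, 3 lay in the mitochondrial insertion window, on AT2G07638 and AT2G07711. The remaining 1 lay on HR4, a homolog of the RPW8 resistance gene, with 5257 and 5411. Without that window, 23 of 24 were lower (95.8%), with a median log2 ratio of -0.70. The shares lower were 68.7% of all nuclear peaks, 56.9% on the other H3K27me3 peaks of the class and 53.1% on level-matched peaks. The window was left out after the data were seen, and the larger share and median follow from dropping its 3 higher peaks.

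The largest differences in opposite directions were at AT1G67328 and AT1G67330. There H3K4me3 went from 14164 to 35.8, while H3K27me3 went from 581 to 16341 on nearly the same stretch. AT1G22600 had H3K4me3 signals of 8105 and 58.1 and H3K27me3 signals of 4488 and 10446 (chromosome 1, 7988730 to 7989230). At AT3G24780 a short H3K4me3 peak inside the H3K27me3 peak had 9569 and 376. AT1G05400 held H3K4me3 peaks on both sides of its H3K27me3 peak centre, 1 with 6711 and 632 and the other with 13192 and 11115. These were 10.6-fold and 1.19-fold lower.

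Several H3K4me3 peaks lay on genes with known functions. ASE1, which encodes the amidotransferase that opens purine synthesis, had H3K4me3 signals of 6629 and 912, with H3K27me3 at 10359 and 19285. ZF14, a transporter gene also named BCD1, had 8480 and 1852 in H3K4me3, with H3K27me3 at 6339 and 13673. ATPMEPCRB, a pectin methylesterase gene, had 13678 and 8715, a 1.57-fold difference. At the MIR156d locus the H3K4me3 peak went from 24028 to 14284, 1.68-fold lower, and shared 690 bp with the H3K27me3 peak, while the H3K4me3 peak 370 bp to the other side had 25442 and 24534. At BZIP34, a bZIP transcription factor gene, H3K27me3 went from 3921 to 12677 inside a long H3K4me3 peak that had 25106 and 24795. AT1G12160 had 11612 and 4036, AT2G13550 had 7634 and 2704, AT5G25030 had 6316 and 1892, and AT5G27037 had 8955 and 3124.

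**Figure D4:**
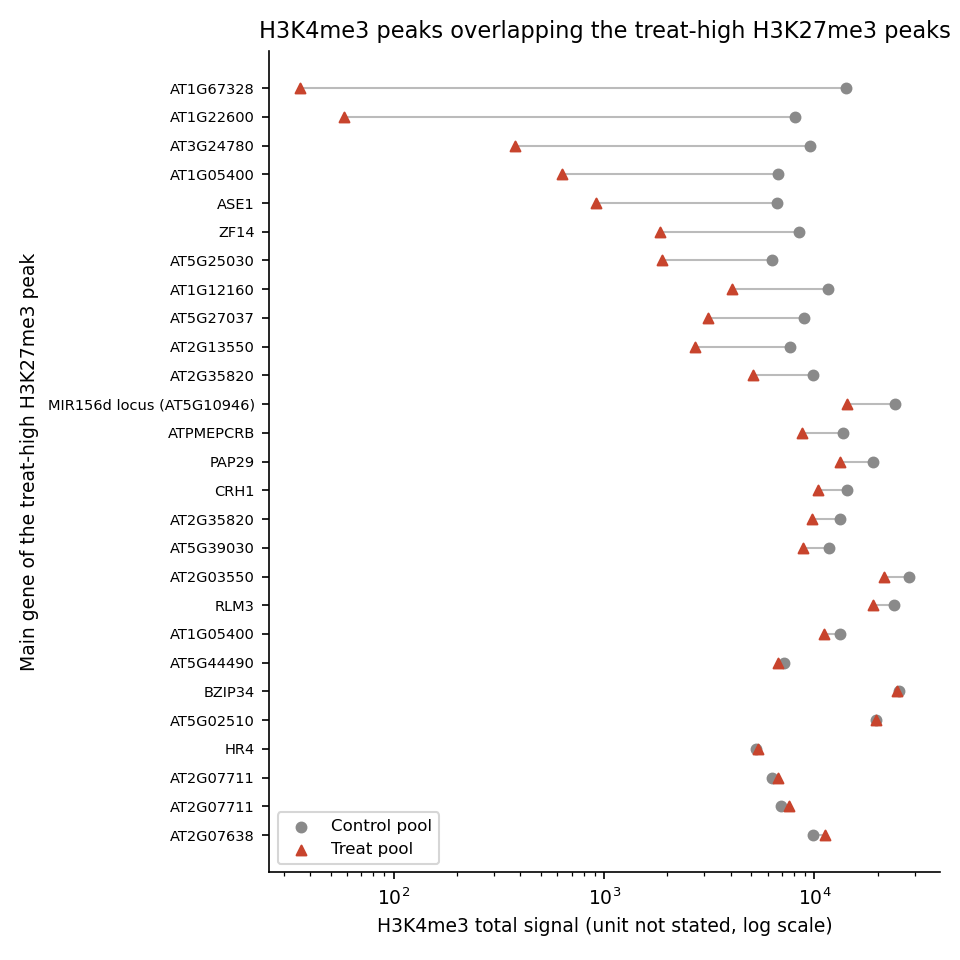
H3K4me3 total signal (x axis, log scale, authors' unstated unit) in the control pool (grey circles) and the treat pool (red triangles) for the 27 H3K4me3 peaks that overlap a treat-high H3K27me3 peak, 1 row per H3K4me3 peak, labelled by the main gene of the H3K27me3 peak. The treat value lies to the left in 23 rows, furthest at AT1G67328 (14164 and 35.8).

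H3K4me3 peaks within 2 kb that did not touch the treat-high peaks were counted apart. Of 128, 12 were 1.5-fold lower (9.38%) and 3 higher (2.34%), against 4.57% and 2.85% of 2776 beside the other peaks of the class. TSPO lay next to a strong H3K4me3 peak with 32702 and 30323, and 880 bp away from a weak 1 with 6608 and 499. The H3K4me3 peak near GH9B18 had 23586 and 14303, and that near NAC060 had 15813 and 11486. CBL8 had a neighbour with 17532 and 19013, in the direction of its H3K27me3.

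Protein-coding genes were found on 238 treat-high peaks (72.1%), with 242 distinct genes, and on 75.5% of the other peaks of the class. A gene counted when at least 150 bp of it, or all of a shorter gene, was covered. Pseudogenes were on 21 peaks (6.36%, against 4.87%), long noncoding RNA genes on 16 (4.85%, against 6.26%), and 64 peaks held no gene. The peaks were often partial. The main protein-coding gene was covered over a median of 47.3% of its body, against 82.7% for the other peaks, and 63.7% for the level-matched peaks. Wholly inside a protein-coding gene lay 101 treat-high peaks (30.6%), 16.3% of the other peaks, 206 of the 936 level-matched peaks and 24.5% of the 885 peaks that were lower in the treat pool by the mirrored rule. Median lengths of these sets were 960, 1630, 1330 and 1160 bp in the same order. The part of length in the coverage and in these shares was not tested. With genes moved by 5000 bp, 67.9% of the treat-high peaks still lay on a protein-coding gene, and with genes moved by 20000 bp 63.0%. On 10 genes there were 2 treat-high peaks each, so these 20 peaks share a gene.

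Only 77 of the 330 peaks had a main gene with a symbol other than its locus code. The groups below were put together after the values were seen. No share among the other peaks was counted for them, so they do not show that a function is frequent in the set. In stress and abscisic acid responses, LTI65, also named RD29B and induced by drought, carried 2 treat-high peaks, the first with 2503 and 11238 and the second with 2286 and 12194. NAC060, a transcription factor gene of sugar and abscisic acid signalling, had 2992 and 12605, a 4.21-fold difference. MDHAR, a monodehydroascorbate reductase gene of the antioxidant system, had 5343 and 12439.

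Genes of pathogen responses were a second group. AIG1, induced by a bacterial effector, had 6830 and 18404. Of the resistance genes, LAZ5 had 12807 and 19298 and RLM3 had 10637 and 19641. HR2 and HR4 are neighbouring homologs of RPW8, and their treat signals of 13926 and 13947 were each close to 1.5 times the control signal.

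Hormone genes were few and single. LOG3, which encodes an enzyme that activates cytokinin, had 4154 and 12094. ACS11 of ethylene synthesis had 5811 and 10285, and LOX3 of jasmonate synthesis had 6434 and 11124. CLE3, a signalling peptide gene of the CLAVATA3 family, had 5875 and 10031.

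Several enzyme and transporter genes were also on treat-high peaks. CESA10, a cellulose synthase gene, had 3441 and 11902, and the callose synthase family gene GSL04 had 7545 and 13060. Of the proline-rich receptor kinase genes, PERK7 had a peak with 3749 and 10936 and a second with 9782 and 16366, and PERK6 had 9842 and 17532. The ABC transporter gene ABCG38 also held 2 peaks, with 6495 and 12837 at the first and 3175 and 11953 at the second. ABCB15 had 9618 and 17394, ABCA9 had 7690 and 15194, and the sulphate transporter gene SULTR3;5 had 6126 and 13745. The amino acid exporter family genes UMAMIT20 and UMAMIT32 had ratios of 1.75 and 1.52. PUB54, a U-box ubiquitin ligase gene, had 3339 and 10834.

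The RNA-binding Pumilio genes PUM15, PUM11 and PUM13 were each on a treat-high peak. PUM15 had 2149 and 10728, PUM11 had 6437 and 10583, and PUM13 had 7332 and 12276. Chromatin genes were represented by DRM1, of the de novo DNA methyltransferase family, with 10208 and 15528, and by CRH1, also named MORC2, with 10469 and 16598. The MADS-box gene AGL50 had 5594 and 14348, and the homeodomain gene HDG10 had 10117 and 18834.

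Classes read from words in gene names gave small counts. Names were mostly codes, and 74 treat-high peaks (22.4%) had a gene with a descriptive word in its names, against 27.9% of the other peaks. Transcription factor words were found at 3 treat-high peaks (0.909%), against 3.8% of the other peaks and 2.78% of the level-matched peaks. Cytochrome P450 words were found at 1 (0.303%), against 1.63%. Kinase or receptor words were found at 6 (1.82%, against 1.2%), cell wall words at 7 (2.12%, against 1.36%), transporter words at 6 (1.82%, against 1.72%) and small peptide words at 3 (0.909%, against 2.16%). None of these 3 was a small peptide gene: the words matched the receptor kinase gene CRK7, the P450 gene CYP71B32 and the oligopeptide transporter gene OPT9, while CLE3 was missed. Disease resistance, F-box and hypothetical protein words were found at 0, against at most 0.124%. Transposon words were found at 0 peaks of every set, so this class says nothing about transposons at the treat-high peaks. The words searched were narrow, so these counts miss genes of a class. RLM3, for example, has resistance in its name but not disease resistance, and was not counted.

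The treat-high peaks were spread evenly over the chromosomes but not along them. They were 5.13% of the peaks of the class on chromosome 2 and 5.94% on chromosome 3, with the other chromosomes between. Distance was measured from the middle of the 1 Mb bin with the fewest protein-coding genes on each chromosome, which marks the gene-poor centre. Within 5 Mb lay 151 of the 330 (45.8%), against 30.1% of the other peaks, 30.7% of the level-matched peaks and 23.1% of the peaks lower by the mirrored rule. Within 2 Mb lay 48 (14.5%), against 4.57%, 4.91% and 4.29%.

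Read the other way, 12.1% of the 58 peaks under 1 Mb from the gene-poor centre were treat-high, and 16.5% of the 248 at 1 to 2 Mb. The treat-high share was 9.22% at 2 to 3 Mb, 4.67% at 5 to 6 Mb and 3.21% beyond 12 Mb. The share of peaks lower in the treat pool was 8.62%, 13.3%, 9.64%, 16.7% and 20.7% at these distances. The treat-high share was higher within 5 Mb than beyond on chromosomes 2 to 5 and lower on chromosome 1. On chromosome 3 treat-high peaks were 10.4% within 5 Mb and 3.63% beyond, and on chromosome 2 they were 8.21% and 3.48%. On chromosome 1 they were 5.18% and 5.62%. Gene density defines the distance used here, and its part in these shares was not tested.

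**Figure D5:**
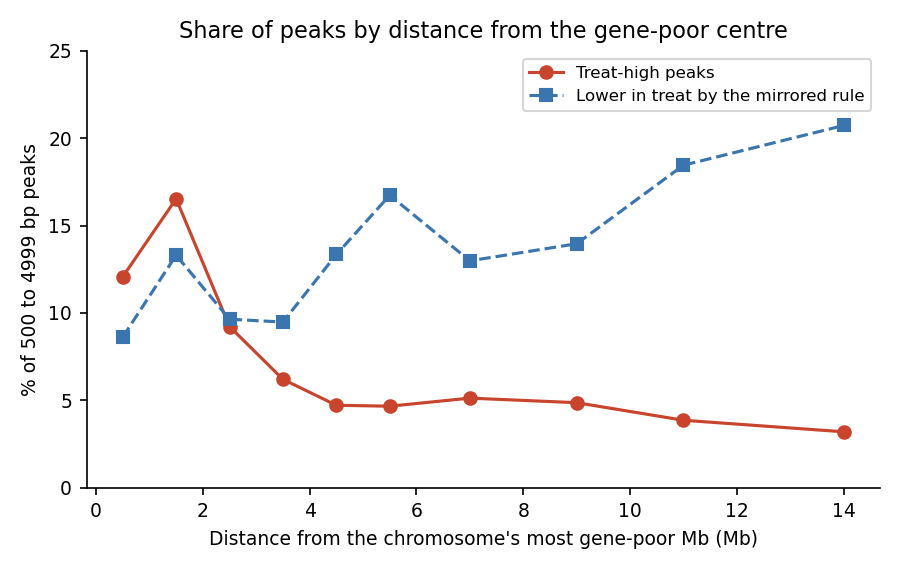
Share of nuclear H3K27me3 peaks of 500 bp up to 5000 bp that were treat-high (red) or lower in the treat pool by the mirrored rule (blue), in bins of distance from the middle of the most gene-poor Mb of each chromosome. Points stand at bin middles, and the treat-high share is 12.1% under 1 Mb, 16.5% at 1 to 2 Mb and 3.21% beyond 12 Mb.

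Some treat-high peaks lay close together. There were 25 groups within 5 kb of each other, with 52 peaks in all and at most 3 in a group, and 10 of the groups were the pairs on 1 gene counted above. The same count was not made for other peaks. The groups of 3 lay on chromosome 4, around UMAMIT20 (5236170 to 5242110) and at AT4G23350 and AT4G23355 (12198070 to 12201990). Within 5 kb of the treat-high peaks lay 609 other nuclear H3K27me3 peaks. Of those under 500 bp, 81.2% were higher in the treat pool, against 61.1% of all nuclear peaks of that size, and of those of 500 bp or more 45.4% were higher, against 24.2%. The median log2 ratio of the longer neighbours was -0.04, against -0.21.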

How the data were processed

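Peaks of H3K27me3 and H3K4me3 came from the authors' deposited tables, 1 per mark, made from reads handled with Bowtie and TAIR10, per the submitters' processing notes. No source used here names the peak caller or the normalization. Total signal and height were deposited by the authors as scores of unstated unit, 1 value per pool of 3 replicates, so p-values over replicates could not be computed. The log2 ratios and FDR values were deposited by the authors and used as they stand. The FDR is treated as a p-value column of theirs. The deposited log10 p-values, also scores, were not used. Widths are the authors' deposited values. Peak coordinates are those of the tables, in steps of 10 bp.

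Here peaks were selected, joined and counted with Python 3.11.15 and pandas 2.3.3. The joining step was tested on simulated intervals, and the fold limit on simulated signals that were either doubled or equal between pools. The signal minimum, the length limits and the gene overlap limit were not tested in this way. Genes came from a TAIR10.1 table (RefSeq) used for names and overlaps only. As a check of both builds, 93.7% of nuclear H3K4me3 peaks lay on a protein-coding gene, and 74.9% with genes moved by 5000 bp. For the treat-high peaks these shares were 72.1% and 67.9%. The gene classes were read from symbols and synonyms, since the table has no product names. Sequences were not analysed here.

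Peaks named in the text were the 8 with most treat signal, the 8 with the largest ratios, up to 8 with an FDR under 0.05 by treat signal, the 8 with the largest H3K4me3 differences and the 2 on each side of the fold limit. Others were chosen after their values were seen. The set and all lists were chosen with earlier results of these data known.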

Additional observations from a re-analysis of the deposited data

How the results depend on the processing

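No paired analysis was possible because each mark has a single value per pool, and leaving out a replicate could not be done either. The count of 330 treat-high peaks fell by construction with stricter limits, to 125 at 2-fold, 26 at a treat signal of 20000, 152 at 1000 bp or more, 42 with a deposited FDR under 0.05 and 179 without 5 Mb around the gene-poor centres and the insertion window. It stayed within 1.5 times at a signal minimum of 5000 (407), with the ratio of heights (259, of which 223 were shared) and with ratios recentred on the nuclear median of -0.14 (464, with all 330 included). An H3K4me3 peak within 500 bp was found at 56 in place of 24. The median H3K4me3 log2 ratio was -0.36 at the 6 peaks at or above the lower quartile of all nuclear H3K4me3 peaks. All 6 were below 0, but AT5G02510 at -0.0003 and BZIP34 at -0.018 hardly differed. Of these, only the MIR156d locus, at -0.75, was past 1.5-fold. By height the median over the 27 was -0.57, and 20 of 27 were lower. The count of 13 lower H3K4me3 peaks was 10 at 2-fold, 12 with 150 bp of overlap, 13 by height and 13 without the insertion window (these 4 settings were chosen after seeing the data). A protein-coding gene with 50% of its body covered was found at 115 treat-high peaks in place of 238. The share near the gene-poor centre was 14.5% with a 2 Mb window, also chosen after seeing the data, as was the level-matched set. The cause was not tested for any of these shifts. The planned settings on base composition and motifs were not run. Depth per library is unknown, so counting error cannot be given for any value.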
